A study of Rattus norvegicus with 18 samples.

Results

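Interferon-stimulated effector genes are the genes that cells switch on after an interferon binds its receptor and whose products act against viruses, tag proteins or report foreign RNA. A named list of 41 such genes, with the interferon regulatory factors left out, was followed through rat kidney. Each gene was read from the brightest probe set that names it alone. All 41 listed genes were found, each by 1 probe set, among 22084 genes on the array. For 40 of the 41 the annotation also gave a gene identifier held by RefSeq. For Usp18 it gave none, so the identity of Usp18 rests on the symbol alone.

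The animals are called SD rats in the title of the study, which compared kidneys of rats given cadmium chloride (CdCl2) with kidneys of rats given normal saline. Kidneys were taken at 1 day, 6 weeks and 12 weeks, and total RNA of the whole organ was labelled with biotin for Affymetrix mRNA arrays. The 6 groups were saline at 1 day, saline at 6 weeks, saline at 12 weeks, cadmium at 1 day, cadmium at 6 weeks and cadmium at 12 weeks. Each group held 3 arrays, 18 in all. No transgene, deletion or second agent is given for any group. The labels call the 3 arrays of a group biological replicates but do not say that they came from separate animals, so a p value measures the spread between these arrays. Dose, route, sex, age and hour of harvest are not given.

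Type I interferons signal through the receptor chains IFNAR1 and IFNAR2 and the kinases JAK1 and TYK2, which activate STAT2. Together with IRF9 it is part of a complex that binds a short promoter motif, the interferon-stimulated response element, and switches on the effector genes. Their products include GTPases that trap virus parts, synthetases whose product activates the RNA-cutting enzyme RNase L, and ISG15, a ubiquitin-like tag. In kidney such genes are known from infection, lupus nephritis and injured tubules.

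All values are deposited log2 signals, and a difference between groups is a difference of log2 signals, not a calibrated fold, because how the authors summarised and normalised the arrays is not given in the sources used here. Signals ran from 1.78 to 19.93, the array medians lay between 4.03 and 4.26, and 9 of the 18 arrays reached the same ceiling. Arrays of a group correlated at 0.982 to 0.995 over genes and arrays of different groups at 0.979 to 0.995. A background level of 4.22 was taken from 1276 odorant and vomeronasal receptor genes, and 40 of the 41 members had a mean above it, Oas3 being the exception. The kidney markers matched the label: the sodium-phosphate carrier Slc34a1 of the proximal tubule read 18.81 to 19.79 and uromodulin, Umod, of the loop of Henle 19.71 to 19.89 over the 18 arrays. Hmox1, which encodes the heme-degrading enzyme and is a known responder to cadmium, rose by 9.04 at 12 weeks (SE 0.55, limma adjusted p = 2.28e-06) and stood 2.89 higher at 6 weeks (adjusted p = 0.0953). Some arrays stood apart from their group in genes of the daily clock. The clock output gene Dbp read 8.01 in cadmium replicate 3 of 6 weeks against 12.97 and 12.85 in its group, 9.75 in cadmium replicate 3 of 1 day against 12.53 and 11.87, and 11.66 in cadmium replicate 2 of 12 weeks against 7.68 and 8.06. All 3 saline arrays of 12 weeks were low, at 7.23, 8.76 and 7.07.

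The response element was searched for as the letters TTTC, any 2 bases and again TTTC, on either strand, in the 250 bases before each gene's start, in the RefSeq promoter table of the rat (GRCr8). Of 32 members with an entry, 21 (65.6%) held at least 1 match, against 1140 of 33469 promoters in the table (3.41%) and 651 of 20281 promoters of genes on the array (3.21%). In 18 of the 21 the nearest match lay within 100 bases of the start. A match describes letters, not a bound site, and the same letters were counted in all promoters. The windows that follow are shown because they let the matches of risen and other members be read side by side. The match is in capitals, with up to 12 bases on each side, 5′ to 3′ along the gene. The first 5 belong to genes that rose over 6 and 12 weeks, and the last 4 to relatives or neighbours in function that did not pass there.
Oas1a (chr12:41330413-41330452, plus strand): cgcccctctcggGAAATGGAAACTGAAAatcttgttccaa
Oasl2 (chr12:47383315-47383348, minus strand): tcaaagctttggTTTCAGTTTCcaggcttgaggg
Ifi44 (chr2:243303845-243303878, minus strand): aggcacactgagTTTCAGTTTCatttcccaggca
Lgals3bp (chr10:104127877-104127910, minus strand): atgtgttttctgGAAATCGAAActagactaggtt
Eif2ak2 (chr6:21941126-21941153, plus strand): ggagtccgccggGAAAACGAAAcagaga
Oas1b (chr12:41395884-41395923, minus strand): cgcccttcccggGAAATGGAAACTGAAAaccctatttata
Oas3 (chr12:41439625-41439658, plus strand): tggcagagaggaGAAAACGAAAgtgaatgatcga
Gbp2 (chr2:234005684-234005717, plus strand): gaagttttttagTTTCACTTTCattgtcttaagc
Gbp5 (chr2:233910931-233910964, plus strand): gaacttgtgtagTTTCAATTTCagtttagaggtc
Oas1a and Oas1b carry 2 overlapping matches in the same 16 letters, and Bst2 and Trim21 also hold an overlapping pair. Of the members with an entry that rose over 6 and 12 weeks, 6 of 11 (54.5%) held a match, and of those that did not pass, 15 of 21 (71.4%) did. The members that rose and held no match in this window were Mx1, Oasl, Herc6, Stat2 and Parp9. Mx2, Ifit1, Ifit2, Oas2, Isg15, Usp18, Dhx58, Zbp1 and Rtp4 were not looked at here.

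Across the members, cadmium kidneys stood above saline kidneys at 6 and 12 weeks and not at 1 day. The mean log2 signal over the 41 members was 6.27 ± 0.07 (SD, n = 3) in saline and 7.21 ± 0.11 in cadmium at 6 weeks, and 6.28 ± 0.11 in saline and 6.91 ± 0.12 in cadmium at 12 weeks. At 1 day it was 6.95 ± 0.25 in saline and 6.82 ± 0.16 in cadmium, so the saline kidneys of 1 day sat near the level of the cadmium kidneys of the later times. The heat map of all members by array shows this as a blue block in the 6 later saline arrays. In RNA of a whole organ, fewer cells of a type and less RNA per cell cannot be told apart.

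**Figure D1:**
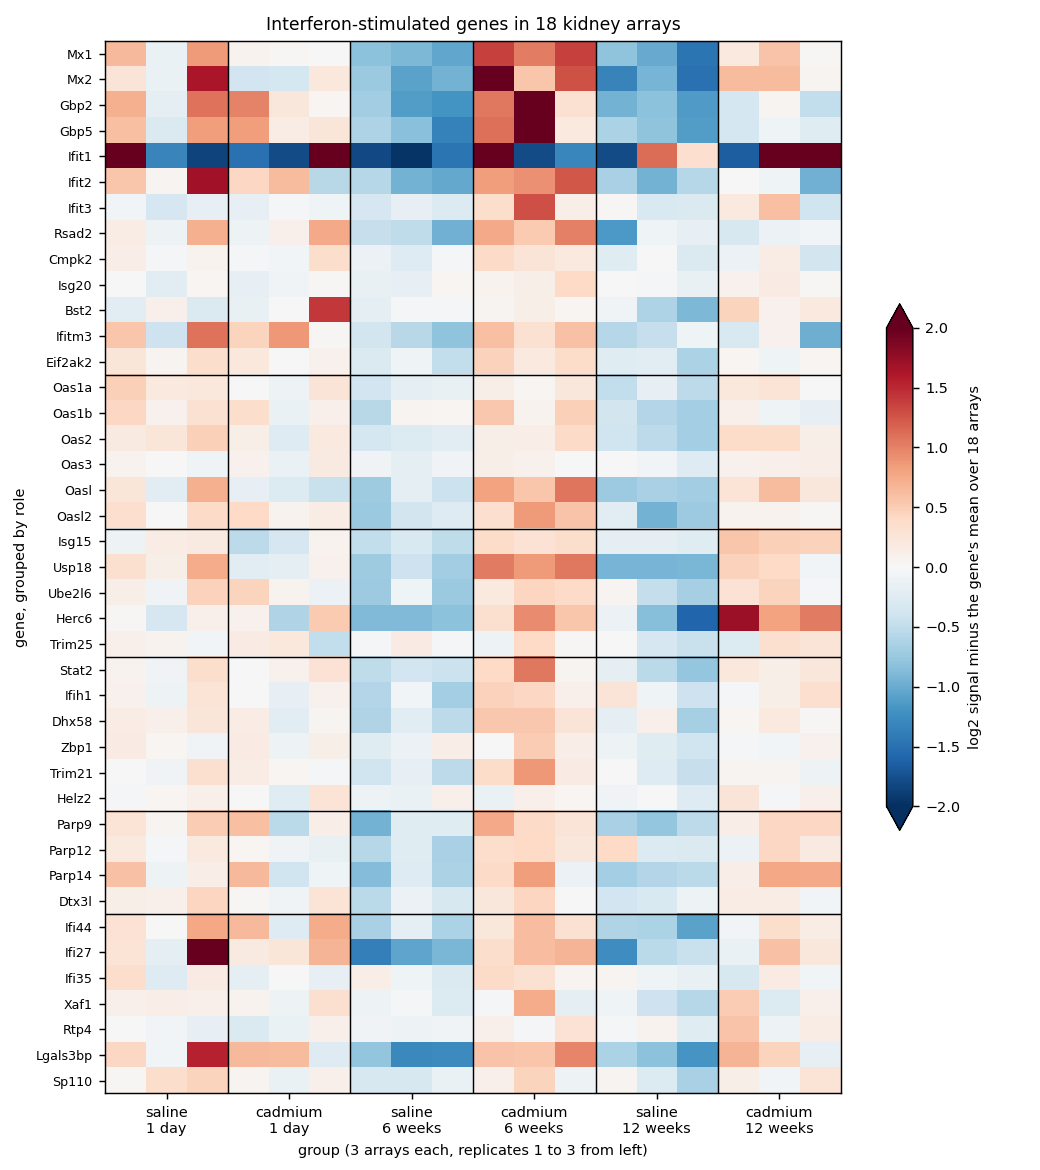
Log2 signal of the 41 members (one line of the map each, grouped by role) in the 18 arrays, each gene shown as its difference from its own mean over all arrays. The 6 saline arrays of 6 and 12 weeks lie on the low side for most members, and the 3 cadmium arrays of 6 weeks on the high side.

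At 6 weeks all 41 members had a higher mean with cadmium, with a median difference of 0.84 against -0.00 over all genes, and in 35 of 41 the 3 cadmium arrays lay above all 3 saline arrays (10.5% of all genes did). After adjustment over all 22084 genes, 3 members rose, Mx1, Usp18 and Isg15, while 0.0362% of all genes rose at that time. At 12 weeks 39 of 41 members had a higher mean, with a median of 0.49 against 0.01 over all genes, and 24 did not overlap with saline (7.92% of all genes). There 6 members rose, Usp18, Oas2, Mx1, Herc6, Isg15 and Oasl, against 0.29% of all genes. All 3 members called at 6 weeks were among the 6 called at 12 weeks, 3 of 3 and 3 of 6. In 23 members the cadmium arrays lay above the saline arrays at both times, as did 0.883% of all genes. These counts include Oas3, which was at background. The counts of higher means also include Ifit1, whose higher cadmium mean at 6 weeks came from 1 array.

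Averaging the cadmium change over 6 and 12 weeks sets 6 arrays against 6, and 16 of the 41 members rose in it, against 0.34% of all genes. All 41 differences were above 0, from 0.13 to 1.96 with a median of 0.61, while the median over all genes was 0.00. The average uses the same arrays as the 2 single times and is no separate evidence. The count at 6 weeks was 8 without saline replicate 3 of 1 day and 6 without cadmium replicate 3 of 6 weeks. Over all genes the 9 calls of that time became 25 and 32. At 12 weeks the member count fell to 1 without saline replicate 3 or cadmium replicate 1. It fell to 2 without replicate 2 of either group of that time. Over all genes the 72 calls became 33 and 39, and 44 (saline) and 35 (cadmium). The averaged member count was 8 without saline replicate 3 of 6 weeks, saline replicate 3 of 12 weeks or cadmium replicate 2 of 12 weeks. It was 9 without replicate 1 of either group of 6 weeks. Over all genes the 87 calls became 39, 42 and 41, and 50 (saline) and 42 (cadmium).

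At 1 day limma called none of the 41 members and 0.0% of all genes, and 4 members had an unadjusted p under 0.05, as did 433 of all genes. The median difference was -0.11 and 12 of 41 were above 0. Leaving out 1 array moved this median between -0.21 (without saline replicate 2 of 1 day) and -0.03 (without cadmium replicate 2 of 1 day). The smallest p values belonged to Usp18, Isg15 and Oasl. Usp18 read 6.65, 6.45 and 7.08 in saline and 6.12, 6.14 and 6.43 in cadmium, a difference of -0.50 (SE 0.16, adjusted p = 1). Its cadmium arrays lay below all 3 saline arrays, which held for no other member on either side (2.35% of all genes were higher and 2.88% lower in this way). Isg15 differed by -0.34 and Oasl by -0.54 at that time, with overlapping arrays.

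The first role is that of effectors that act on virus parts, 13 genes. Mx1, a GTPase that blocks incoming virus, gave the clearest rise. It read 6.07, 5.99 and 5.85 in saline and 8.26, 7.92 and 8.25 in cadmium at 6 weeks. At 12 weeks the values were 6.08, 5.88 and 5.43 in saline and 7.08, 7.46 and 6.92 in cadmium. The groups were apart by more than their own range at both times, and Mx1 rose by 2.17 at 6 weeks (SE 0.22, limma adjusted p = 0.00104) and by 1.36 at 12 weeks (SE 0.22, adjusted p = 0.0164). At 1 day it read 7.53, 6.75 and 7.74 in saline and 6.96, 6.92 and 6.90 in cadmium, with overlap, so the kidneys of 1 day lay between the later saline and the cadmium kidneys of 6 weeks. Each call was refitted under 26 alternatives, which change the scaling, the genes, the model or leave out 1 array. Many of the latter drop an array outside the comparison, which alters the shared spread but not the difference itself. The mean of all probe sets leaves each member's values as they are, because each had 1 probe set. A count of alternatives kept is therefore no count of independent checks. The Mx1 call at 6 weeks held in all 26, with adjusted p from 0.00011 to 0.0138, and that at 12 weeks in 22.

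Mx2, its paralogue, spread more widely. It read 7.06, 6.73 and 6.86 in saline and 9.92, 8.36 and 9.07 in cadmium at 6 weeks, and 6.46, 6.88 and 6.32 against 8.44, 8.44 and 7.86 at 12 weeks. At 1 day it read 8.07, 7.68 and 9.44 in saline and 7.42, 7.45 and 8.01 in cadmium. The later groups did not overlap, and Mx2 passed over both times, rising by 1.96 (SE 0.29, adjusted p = 0.00695), but not at 6 weeks alone (2.24, SE 0.41, adjusted p = 0.0783). Eif2ak2, the kinase PKR that stops translation on meeting double-stranded RNA, read 9.56, 9.75 and 9.35 in saline and 10.29, 10.03 and 10.21 in cadmium at 6 weeks. The arrays of 12 weeks read 9.60, 9.61 and 9.21 against 9.88, 9.75 and 9.88, and at 1 day 10.08, 9.89 and 10.19 against 10.05, 9.84 and 9.92. Its later groups were apart by a narrow margin, and it rose by 0.50 over both times (SE 0.09, adjusted p = 0.027), a call kept in 15 of the 26 alternatives (0.00647 to 0.0914).

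The guanylate-binding proteins Gbp2 and Gbp5, GTPases that coat vacuoles holding microbes, had large differences at 6 weeks that did not pass. Gbp2 read 7.50, 7.09 and 7.0 in saline and 9.25, 10.67 and 8.51 in cadmium at 6 weeks, and 7.25, 7.38 and 7.06 against 7.85, 8.25 and 7.71 at 12 weeks. Cadmium replicate 2 of 6 weeks was the highest of the 18 arrays for both Gbp2 and Gbp5. The Gbp2 difference was 2.28 at 6 weeks (SE 0.44, adjusted p = 0.0979) and 1.49 over both times (SE 0.31, adjusted p = 0.062), and for Gbp5 they were 2.16 and 1.39. Of the other effectors none passed over both times. Ifit2, which binds viral RNA, differed by 1.84 at 6 weeks and 0.38 at 12 weeks, and Rsad2, the radical enzyme viperin, by 1.41 and 0.30. Ifitm3, which blocks virus entry at membranes, differed by 1.07 at 6 weeks and by -0.03 at 12 weeks, where the 2 groups overlapped. Bst2, the virus tether tetherin, was the reverse in size, at 0.15 and 0.78. Ifit3, Cmpk2 and Isg20 stood at 0.84, 0.41 and 0.29 at 6 weeks and at 0.33, 0.06 and 0.15 at 12 weeks.

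**Figure D2:**
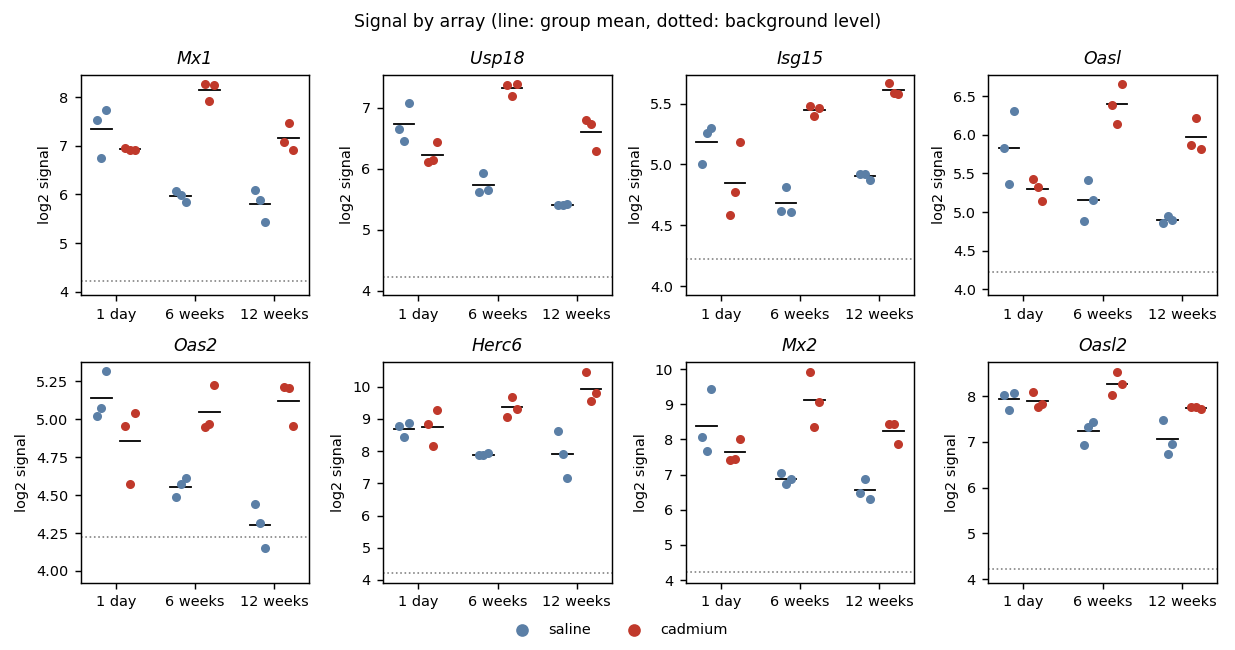
Log2 signal of Mx1, Usp18, Isg15, Oasl, Oas2, Herc6, Mx2 and Oasl2 by array (points; blue saline, red cadmium; black lines are group means of 3 arrays) at 1 day, 6 weeks and 12 weeks. In each panel the cadmium points of 6 and 12 weeks lie above the saline points of the same time, and those of 1 day overlap except for Usp18.

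Of the 6 oligoadenylate synthetases and their relatives, 4 rose over both times. In the 5 with a signal above background the cadmium arrays lay above all saline arrays at both 6 and 12 weeks. Oas2 read 4.49, 4.57 and 4.61 in saline and 4.95, 4.97 and 5.22 in cadmium at 6 weeks, and 4.44, 4.32 and 4.15 against 5.21, 5.20 and 4.95 at 12 weeks. At 1 day it read 5.02, 5.07 and 5.32 in saline and 4.95, 4.57 and 5.04 in cadmium. Values ran from 4.15 to 5.32, not far from the background level of 4.22. The saline arrays of 12 weeks were closest to it, and their replicate 3, at 4.15, lay below it. Oas2 rose by 0.82 at 12 weeks (SE 0.13, adjusted p = 0.0137) and by 0.65 over both times (SE 0.09, adjusted p = 0.00647). Oasl, a synthetase-like protein with ubiquitin-like domains, read 4.89, 5.41 and 5.16 in saline and 6.39, 6.15 and 6.66 in cadmium at 6 weeks, and 4.86, 4.95 and 4.89 against 5.87, 6.22 and 5.81 at 12 weeks. At 1 day it read 5.83, 5.36 and 6.31 in saline and 5.43, 5.33 and 5.14 in cadmium. Oasl rose by 1.07 at 12 weeks (SE 0.21, adjusted p = 0.0434), a call kept in 9 of 26 alternatives (adjusted p 0.0161 to 0.198), and by 1.16 over both times (SE 0.15, adjusted p = 0.00222), kept in all 26.

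Oasl2 read 6.94, 7.33 and 7.43 in saline and 8.03, 8.54 and 8.26 in cadmium at 6 weeks, and 7.48, 6.74 and 6.97 against 7.77, 7.76 and 7.71 at 12 weeks. At 1 day it read 8.02, 7.70 and 8.07 in saline and 8.09, 7.76 and 7.83 in cadmium, levels like those of the later cadmium kidneys. It rose by 0.86 over both times (SE 0.13, adjusted p = 0.00891). Oas1a, whose promoter window holds the overlapping matches, read 5.04, 5.24 and 5.28 in saline and 5.53, 5.46 and 5.64 in cadmium at 6 weeks. The later arrays, of 12 weeks, read 4.94, 5.26 and 4.90 against 5.63, 5.70 and 5.42, and at 1 day 5.90, 5.61 and 5.64 against 5.41, 5.33 and 5.68. Oas1a rose by 0.46 over both times (SE 0.09, adjusted p = 0.0413), and the call was kept in 10 of 26 alternatives (0.0074 to 0.135). Oas1b differed by 0.50 over both times (adjusted p = 0.14). Oas3 was at or below the background level in every group mean, so no difference is read from it. Whether probe sets of closely related synthetases share signal was not tested.

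ISG15 conjugation had 5 members, of which 2 rose at 6 weeks and 3 at 12 weeks. Usp18, the protease that removes ISG15 and restrains the interferon receptor, read 5.62, 5.92 and 5.65 in saline and 7.37, 7.19 and 7.38 in cadmium at 6 weeks. By 12 weeks it read 5.41, 5.41 and 5.42 in saline and 6.80, 6.73 and 6.29 in cadmium. The saline arrays of 12 weeks were nearly equal, and both times were apart by more than the spread of either group. Usp18 rose by 1.58 at 6 weeks (SE 0.16, adjusted p = 0.00104) and by 1.20 at 12 weeks (SE 0.16, adjusted p = 0.00321), and its adjusted p over both times, 5.62e-05, was the smallest of the members. The call at 6 weeks held in all 26 alternatives and that at 12 weeks in 25.

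Isg15, the tag itself, read 4.62, 4.81 and 4.61 in saline and 5.48, 5.40 and 5.47 in cadmium at 6 weeks. At 12 weeks it read 4.92, 4.92 and 4.87 against 5.67, 5.58 and 5.58, and at 1 day 5.0, 5.26 and 5.30 against 4.59, 4.77 and 5.18. The later groups were tight and apart, while those of 1 day overlapped. The saline arrays of 6 and 12 weeks, at 4.61 to 4.92, were not far above the background level of 4.22. Isg15 rose by 0.77 at 6 weeks (SE 0.12, adjusted p = 0.0485) and by 0.71 at 12 weeks (SE 0.12, adjusted p = 0.0226). The call at 6 weeks was kept in 11 of 26 alternatives (0.00178 to 0.295) and the call at 12 weeks in 19, whereas that over both times (0.74, SE 0.09, adjusted p = 0.00142) was kept in all 26.

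Herc6, the ligase that attaches ISG15 in mice, read 7.87, 7.88 and 7.93 in saline and 9.08, 9.70 and 9.31 in cadmium at 6 weeks. At 12 weeks the values were 8.64, 7.90 and 7.17 against 10.46, 9.56 and 9.81, and at 1 day 8.79, 8.43 and 8.86 against 8.84, 8.15 and 9.29. Its cadmium kidneys of 12 weeks were the highest group, unlike most members. Herc6 rose by 2.04 at 12 weeks (SE 0.34, adjusted p = 0.0193), kept in 22 of 26 alternatives, and by 1.75 over both times (SE 0.24, adjusted p = 0.00504). Ube2l6, which loads ISG15 on its ligases, differed by 0.73 over both times (adjusted p = 0.0736). Trim25, a ligase that also activates the RNA sensor RIG-I, had the brightest mean of the member probe sets, 10.18, and differed by 0.22 over both times, with overlap at both.

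Among the 6 sensors and signalling genes, Stat2 and Dhx58 rose over both times. Stat2, the transcription factor of the response element complex, read 7.56, 7.68 and 7.63 in saline and 8.46, 9.11 and 8.12 in cadmium at 6 weeks. The arrays of 12 weeks read 7.89, 7.52 and 7.30 against 8.28, 8.18 and 8.29, and at 1 day 8.14, 7.99 and 8.42 against 8.06, 8.15 and 8.36. The difference over both times was 0.81 (SE 0.14, adjusted p = 0.0226), with no overlap at either time, and the call was kept in 17 of 26 alternatives (0.00352 to 0.0859). Dhx58, the regulator LGP2 of the RNA sensors, read 5.13, 5.52 and 5.20 in saline and 6.27, 6.27 and 5.99 in cadmium at 6 weeks. The later arrays, of 12 weeks, read 5.55, 5.83 and 5.07 against 5.77, 5.92 and 5.75, where the groups overlapped, and at 1 day 5.88, 5.83 and 5.97 against 5.88, 5.52 and 5.79. It rose by 0.61 over both times (SE 0.12, adjusted p = 0.0357), kept in 13 of 26 alternatives (0.00765 to 0.112). Ifih1, the RNA sensor MDA5, differed by 0.77 at 6 weeks and 0.22 at 12 weeks, Trim21, an antibody receptor inside cells, by 0.83 and 0.24, Zbp1, a sensor of Z-form nucleic acid, by 0.29 and 0.24, and the helicase Helz2 by 0.04 and 0.22.

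The 4 genes of ADP-ribosylation include Parp9 and its partner ligase Dtx3l, and Parp14 and Parp12, which modify proteins with ADP-ribose. Parp9 read 7.17, 7.87 and 7.87 in saline and 8.87, 8.50 and 8.37 in cadmium at 6 weeks. By 12 weeks it read 7.47, 7.33 and 7.59 against 8.25, 8.54 and 8.54, and at 1 day 8.38, 8.16 and 8.63 against 8.71, 7.58 and 8.25. It rose by 0.96 over both times (SE 0.18, adjusted p = 0.0294), kept in 17 of 26 alternatives (0.0066 to 0.0962). Parp14 read 7.59, 8.21 and 7.82 in saline and 8.83, 9.30 and 8.34 in cadmium at 6 weeks. At 12 weeks it read 7.78, 7.86 and 7.91 against 8.59, 9.23 and 9.22, and at 1 day 9.05, 8.36 and 8.60 against 9.11, 8.05 and 8.37. Its later groups did not overlap, and it rose by 1.06 over both times (SE 0.20, adjusted p = 0.0393), kept in 13 of 26 alternatives (0.00765 to 0.117). Dtx3l (0.44, adjusted p = 0.089) and Parp12 (0.51, adjusted p = 0.125) did not pass.

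Of the 7 other induced genes, Lgals3bp and Ifi44 rose over both times. Lgals3bp, a secreted glycoprotein that binds galectins, read 8.38, 7.88 and 7.90 in saline and 9.74, 9.73 and 10.14 in cadmium at 6 weeks. At 12 weeks the values were 8.53, 8.35 and 7.99 against 9.85, 9.62 and 9.01, and at 1 day 9.58, 9.12 and 10.71 against 9.82, 9.80 and 8.92. It rose by 1.51 over both times (SE 0.25, adjusted p = 0.0159), kept in 23 of 26 alternatives. Ifi44, an interferon-induced protein of the cytoplasm, read 6.58, 7.04 and 6.60 in saline and 7.45, 7.84 and 7.52 in cadmium at 6 weeks. The arrays of 12 weeks read 6.62, 6.58 and 6.15 against 7.17, 7.58 and 7.37, and at 1 day 7.51, 7.22 and 8.0 against 7.87, 6.97 and 7.97. It rose by 0.89 over both times (SE 0.18, adjusted p = 0.0497), at the edge of the threshold and kept in 9 of 26 alternatives (0.00712 to 0.155). Ifi27 differed by 1.32 over both times (adjusted p = 0.089) with no overlap at either time. Sp110, Xaf1, Rtp4 and Ifi35 differed by 0.40, 0.39, 0.23 and 0.16, and for Ifi35 the difference at 12 weeks was -0.00.

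**Figure D3:**
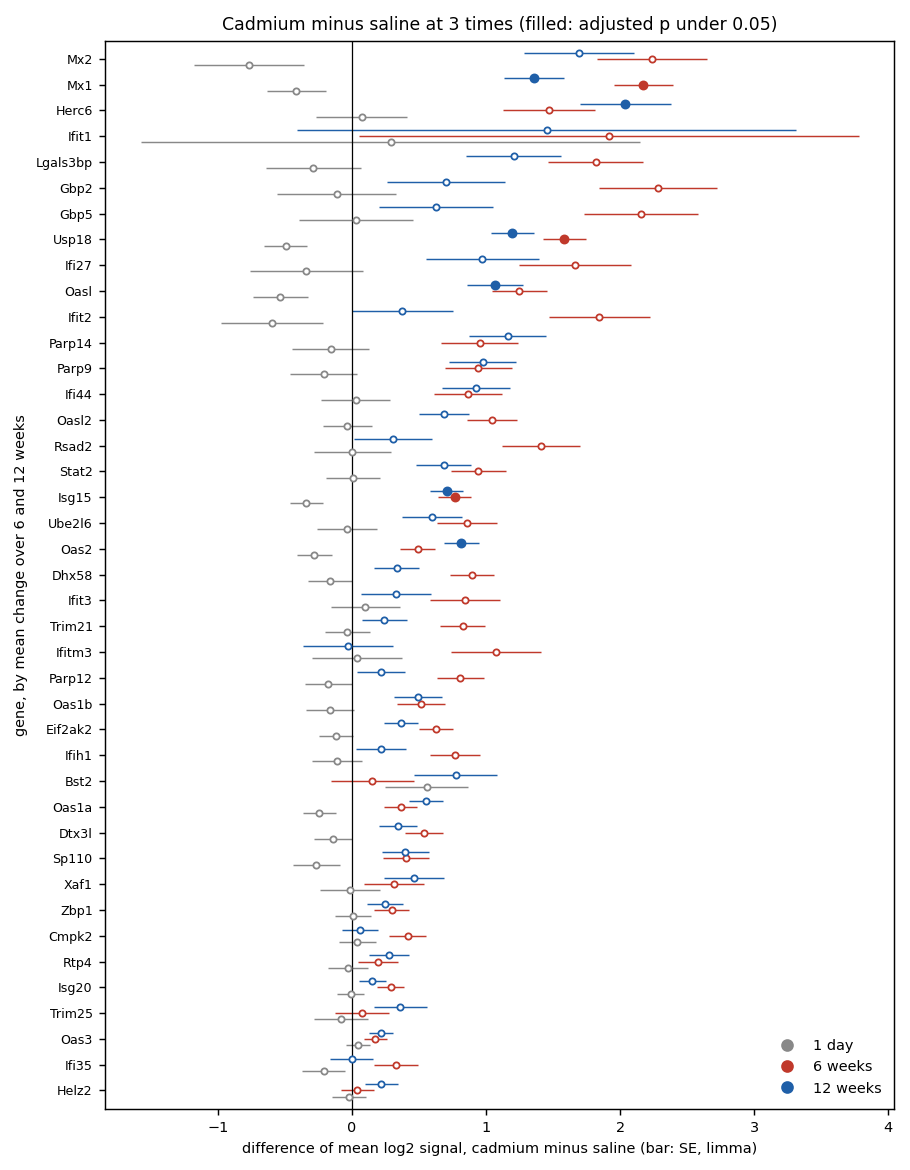
Difference of log2 signal, cadmium minus saline, of the 41 members at 1 day, 6 weeks and 12 weeks (points with standard errors from limma, genes ordered by their mean change over 6 and 12 weeks; grey 1 day, red 6 weeks, blue 12 weeks; filled points passed at an adjusted p under 0.05 over all genes). The points of 6 weeks all lie above 0, and those of 1 day lie on both sides of it.

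Whether the cadmium change differed between times was tested directly. The change at 6 weeks minus the change at 1 day was called for 2 members, and these were the only 2 of all 22084 genes called (0.00906%). For Usp18 this difference was 2.08 (SE 0.23, adjusted p = 0.00475) and for Mx1 2.59 (SE 0.31, adjusted p = 0.00869), and both held in all 26 alternatives. At 12 weeks minus 1 day Usp18 was called (1.69, SE 0.23, adjusted p = 0.00953), as were 0.0408% of all genes, and Mx1 was not (1.77, SE 0.31, adjusted p = 0.0673). These differences use the same arrays of 1 day. That count of 1 became 3 without saline replicate 2 or cadmium replicate 3 of 1 day, and 2 without cadmium replicate 3 of 12 weeks. Over all genes the 9 calls ran from 6 to 20 when 1 array was left out.

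Between 6 and 12 weeks the cadmium change was smaller at 12 weeks in 29 of 41 members, with a median of -0.26, and limma called none of them (0.0136% of all genes were called). At an unadjusted p under 0.05 there were 9, and 2214 of all genes. The smallest p values belonged to Ifit2 (-1.47, SE 0.53), Rsad2 (-1.11, SE 0.41) and Mx1 (-0.82, SE 0.31), with adjusted p of 0.437, 0.441 and 0.451. Ifit2 read 7.42, 7.06 and 6.97 in saline and 8.83, 8.91 and 9.24 in cadmium at 6 weeks, and 7.35, 7.05 and 7.43 against 8.0, 7.92 and 7.04 at 12 weeks. Rsad2 read 6.45, 6.41 and 5.95 against 7.67, 7.44 and 7.93 at 6 weeks, and 5.76, 6.83 and 6.75 against 6.60, 6.80 and 6.86 at 12 weeks. Both were apart at 6 weeks and overlapped at 12 weeks, but a difference between the times was not shown.

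The saline kidneys themselves differed between times, and this bears on each comparison above because the later comparisons rest on the same saline arrays. From 1 day to 6 weeks 40 of 41 members had a lower mean in saline, with a median of -0.58, and 3 fell, Usp18 by 0.99 (SE 0.16, adjusted p = 0.0148), Mx1 by 1.37 (SE 0.22, adjusted p = 0.0148) and Lgals3bp by 1.75 (SE 0.35, adjusted p = 0.0447), while 0.462% of all genes fell. In 27 members the saline arrays of 6 weeks lay below all those of 1 day (10.1% of all genes). From 1 day to 12 weeks 40 of 41 were again lower, with a median of -0.58, and 4 fell: Usp18 by 1.31 (adjusted p = 0.00377), Mx1 by 1.54 (adjusted p = 0.0108), Oas2 by 0.83 (adjusted p = 0.0166) and Oas1a by 0.68 (adjusted p = 0.0377), against 0.258% of all genes. In 23 members the saline arrays of 12 weeks lay below all those of 1 day (7.13% of all genes). Both contrasts share the saline arrays of 1 day. The count at 6 weeks was 0 without saline replicate 3 of 1 day or without replicate 1 or 3 of 6 weeks. It was 1 without replicate 2 of 6 weeks and 5 without replicate 2 of 1 day. Over all genes the 111 calls in either direction became 24, 22 and 19 where the member count was 0, and 51 where it was 1. The member count at 12 weeks was 1 without saline replicate 3 of 1 day or without replicate 2 or 3 of 12 weeks. Over all genes the 64 calls in either direction became 17, 8 and 16.

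Between saline at 6 and at 12 weeks the median difference was -0.00, 21 of 41 were below 0, and limma called none of the members and 0.0% of all genes, with 2 at an unadjusted p under 0.05, as were 1854 of all genes. The smallest p values were those of Parp12 (0.43), Oas1b (-0.40) and Usp18 (-0.32), with adjusted p of 0.558, 0.574 and 0.616. Parp12 read 7.04, 7.37 and 6.96 at 6 weeks and 8.0, 7.33 and 7.31 at 12 weeks, and Oas1b read 4.93, 5.54 and 5.52 at 6 weeks and 5.12, 4.89 and 4.80 at 12 weeks. The groups overlapped for both genes. Usp18 read 5.62, 5.92 and 5.65 at 6 weeks and 5.41, 5.41 and 5.42 at 12 weeks, without overlap. In all, 1 member was higher and 2 were lower without overlap (7.07% and 7.56% of all genes).

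In cadmium kidneys 38 of 41 members were higher at 6 weeks than at 1 day, with a median of 0.32, and Usp18 alone was called (1.09, SE 0.16, adjusted p = 0.0208), as were 0.0181% of all genes upward. That count was 0 without cadmium replicate 1 or 2 of 1 day or without any 1 of the 3 cadmium arrays of 6 weeks. It was 3 without saline replicate 2 or 3 of 1 day, and 2 without saline replicate 1 or 3 of 12 weeks. Over all genes the 23 calls in either direction ran from 0 to 60 when 1 array was left out. At 12 weeks the median against 1 day was 0.08, which became -0.02 without cadmium replicate 2 of 1 day, and Isg15 alone rose (0.76, SE 0.12, adjusted p = 0.0114), against 0.607% of all genes, a call that also ended without that array. Between the cadmium kidneys of 6 and 12 weeks 31 of 41 members were lower at 12 weeks, with a median of -0.23. None was called by limma in either direction, while 44 of all 22084 genes were, 0.0136% of all genes downward. At an unadjusted p under 0.05 there were 13 members, and 2141 of all genes. The smallest p values there belonged to Mx1 (-0.99, adjusted p = 0.125), Usp18 (-0.71, adjusted p = 0.131) and Ifit2 (-1.34, adjusted p = 0.256).

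Against the range of the 6 arrays of 1 day, both treatments together, the saline means of 6 weeks lay below the lowest array in 28 of 41 members (12.5% of all genes) and within the range in 13 (75.3%). Those of 12 weeks lay below it in 29 (9.98%) and within it in 12 (79.1%), and neither saline mean lay above it in any member (12.2% and 10.9% of all genes). The cadmium means of 6 weeks lay above the highest array in 18 members (8.97%), within the range in 23 (82.8%) and below it in 0 (8.23%). The cadmium means of 12 weeks lay within it in 32 (74.3%), above it in 5 (13.1%) and below it in 4 (12.6%). Cadmium at 6 weeks was the group with the highest mean in 28 members, cadmium at 12 weeks in 7, saline at 1 day in 5 and cadmium at 1 day in 1. The lowest group was saline at 12 weeks in 21, saline at 6 weeks in 18 and cadmium at 1 day in 2. In these terms the saline means of both later times were low in most members. The cadmium means of 6 weeks were high in 18 members and within the range in 23. Whether the arrays of 1 day are a neutral level was not tested. What sets the saline level apart at 1 day was not tested, and age, handling and hour of harvest cannot be told apart from time here.

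Ifit1, which binds the cap of viral RNA, behaved unlike the other members. It read 8.26, 3.71 and 3.18 in saline and 3.54, 3.23 and 9.25 in cadmium at 1 day. At 6 weeks it read 3.22, 3.07 and 3.56 in saline and 8.64, 3.24 and 3.73 in cadmium, and at 12 weeks 3.25, 6.14 and 5.37 against 3.38, 8.41 and 7.33. The gene was thus either above background, in 7 arrays at 5.37 to 9.25, or at background, in 11 arrays at 3.07 to 3.73, with nothing between. Arrays above background were 3 of 9 in saline and 4 of 9 in cadmium. Its SD within groups, 2.50, was the fourth largest of all genes, whereas the next member by that measure, Gbp2, had 0.59. At 6 weeks, where saline was at background, the group means differed by at least 0.98, but 1 cadmium array, at 8.64, made that difference. The other cadmium arrays were at background too, and the difference in Ifit1 did not pass (limma adjusted p = 0.753). Ifit2 did not follow it: in cadmium at 1 day the array with Ifit1 at 9.25 had the lowest Ifit2 of its group, 7.45 against 8.41 and 8.62, as the plot of the Ifit genes by array shows.

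**Figure D4:**
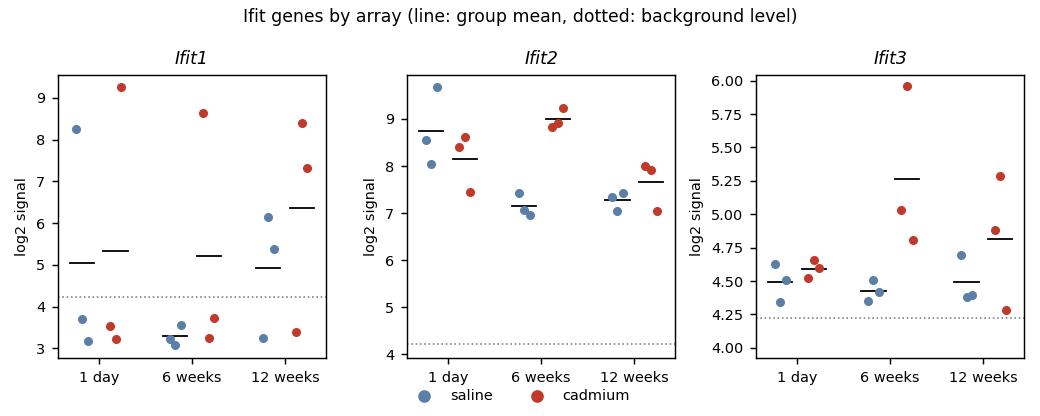
Log2 signal of Ifit1, Ifit2 and Ifit3 by array (points; blue saline, red cadmium; black lines are group means of 3 arrays) with the background level of 4.22 as a dotted line. Ifit1 splits into 7 arrays above the line and 11 below it, with saline at 6 weeks wholly below, while Ifit2 lies above it in all 18 arrays.

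Members were also compared by how they varied between arrays of a group. Deviations from the group means over the 18 arrays gave 820 pairs of members with a median Pearson r of 0.21, and 596 of the pairs were above 0. The 5 highest were Gbp2 with Gbp5 (0.96), Ifit2 with Lgals3bp (0.93), Ifit2 with Ifitm3 (0.88), Gbp5 with Trim21 (0.84) and Stat2 with Trim21 (0.83). The lowest were Trim25 with Rtp4 (-0.61) and Parp14 with Rtp4 (-0.58). These values are a description over 18 arrays, which share the normalization of each array, and carry no test.

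The rest of the interferon pathway was read from lists of ligands, receptors, sensors, restraints and targets of interferon-gamma. The ligands were near background: 7 of 9 had a mean at or below the background level in every group, the list mean ran from 3.66 to 3.84 over the groups, and none was called by limma, nor did any have an unadjusted p under 0.05 at 6 weeks. The ligand genes with the smallest p at 6 weeks were Ifna4 and Ifnl3. Ifna4 had means of 4.17 in saline and 3.92 in cadmium, both below background, so no difference is read from it. Ifnl3, a lambda interferon, had means of 4.97 and 4.81 (adjusted p = 0.697). Ifnb1, interferon-beta, read 2.91 to 3.78 over the 18 arrays and Ifng, interferon-gamma, 3.23 to 3.92, all below the background level. A low signal in whole kidney says nothing of interferon made elsewhere.

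None of the 9 receptor and kinase genes was called, with 2 at an unadjusted p under 0.05 at 6 weeks (as were 2182 of all 22084 genes), the receptor chain Ifnar2 (0.40, adjusted p = 0.463) and the kinase Jak1 (0.33, adjusted p = 0.476). None of 17 sensor and adaptor genes was called, with 6 at that cut at 6 weeks, led by the DNA sensor Aim2 (0.36) and the DNA-degrading enzyme Trex1 (0.73). None of 13 restraint genes was called either, with 5 unadjusted at 6 weeks, led by the ubiquitin editor Tnfaip3 (0.81) and the phosphatase Ptpn6 (1.23).

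Of 21 targets of interferon-gamma, 1 rose over both times, the chemokine Cxcl10, which draws T cells (1.92, SE 0.37, adjusted p = 0.0385). Cxcl10 read 7.08, 7.33 and 6.92 in saline and 9.66, 10.58 and 8.70 in cadmium at 6 weeks, and 8.03, 6.93 and 6.53 against 8.22, 9.16 and 8.02 at 12 weeks. The groups were apart at 6 weeks and overlapped at 12 weeks. Whether the Cxcl10 call held under the alternatives was not looked at. The list's median difference was 0.82 at 6 weeks, close to that of the members, and 0.21 at 12 weeks, with 13 and 4 genes above saline without overlap (10.5% and 7.92% of all genes).

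Markers of macrophages stood higher beside the members at 6 weeks. Of 17 macrophage and monocyte markers, 16 were higher with cadmium at 6 weeks with a median of 0.86, and 11 did not overlap with saline (10.5% of all genes did so), but none passed. Their mean level ranged from 5.94 to 6.33 in the saline arrays and from 6.62 to 7.31 in the cadmium arrays of 6 weeks. Cd68, a lysosomal protein of macrophages, read 7.35, 7.72 and 7.61 in saline and 9.34, 10.06 and 8.52 in cadmium at that time. At 12 weeks the median was 0.13, and the list mean overlapped, 6.20 to 6.38 in saline and 6.14 to 6.62 in cadmium. There the mean of the 41 members ran from 6.15 to 6.35 in saline and from 6.83 to 7.04 in cadmium without overlap. The macrophage mean spread widely in cadmium at 1 day, at 7.43, 6.77 and 6.28, the first above every cadmium array of 6 weeks. The member means of those arrays were 6.84, 6.66 and 6.98. In saline the macrophage mean was 6.69 ± 0.42 at 1 day, 6.16 ± 0.20 at 6 weeks and 6.27 ± 0.10 at 12 weeks. The red blood cell mean in saline was 11.10, 10.18 and 10.48 at these times, and that of the proximal tubule 17.27, 17.27 and 16.95. A saline level lower after 1 day was thus not particular to the members.

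The integrin gene Itgax, on dendritic cells and some macrophages, rose by 1.06 at 6 weeks (SE 0.17, adjusted p = 0.0485) and was 0.60 higher at 12 weeks (adjusted p = 0.235). It was the only one of 11 dendritic cell markers called. The call lay at the edge of the threshold, and whether it held under the alternatives was not looked at. Leaving out 1 array gave 2 to 32 calls over all genes at 6 weeks. T cell markers (11) had medians of 0.21 and -0.07 at 6 and 12 weeks, natural killer cell markers (6) 0.17 and 0.13, neutrophil markers (8) -0.09 and -0.06, and red blood cell markers (6) 0.49 and 0.18. At least 7 of the 8 neutrophil markers and 4 of the 6 natural killer cell markers were at background in every group. B and plasma cell markers (6) had medians of -0.06 and -0.25, with 2 to 4 at background, and their mean at 12 weeks was 5.57 in saline replicate 1 against 4.08 and 4.11 in the other saline arrays. Proximal tubule markers had a mean of 17.27 in saline and 17.29 in cadmium at 6 weeks, and of 16.95 and 16.08 at 12 weeks, with wide overlap. Markers of the loop, distal tubule and collecting duct (8) had medians of -0.71 and 0.46. Podocyte markers (3) had -0.94 and 0.17, and endothelial markers (6) -0.45 and -0.43. At 6 weeks the means of these 3 lists were lower with cadmium without overlap. They ran from 14.10 to 14.56 against 14.83 to 15.38, 8.27 to 8.84 against 9.20 to 9.94, and 10.33 to 10.62 against 10.77 to 10.81. At 12 weeks they overlapped. The means of the red blood cell, T cell, natural killer cell and dendritic cell lists were higher at 6 weeks without overlap. Of 6 known responders to cadmium, with medians of 0.12 and 0.22, Hmox1 was the only one called at 12 weeks. The mean of the clock list was 9.06 in saline at 1 day, 8.90 at 6 weeks and 7.84 at 12 weeks. The part of these cells and of the clock in the members' changes was not tested.

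**Figure D5:**
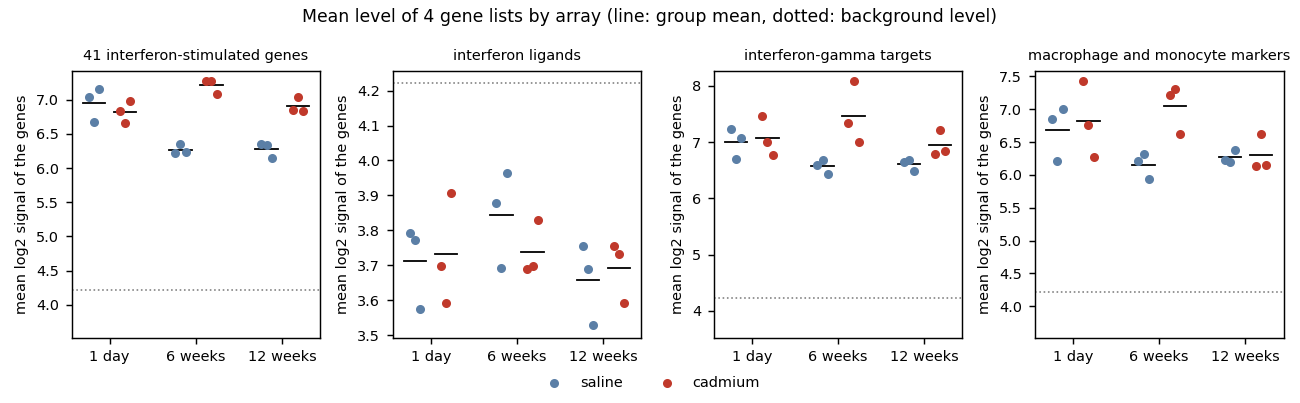
Mean log2 signal of the 41 members, the interferon ligands, the interferon-gamma targets and the macrophage and monocyte markers by array (points; blue saline, red cadmium; black lines are group means of 3 arrays; the dotted line is the background level). The member mean and that of the interferon-gamma targets separate cadmium from saline at 6 and 12 weeks. The macrophage mean does so at 6 weeks and overlaps at 12 weeks.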

How the data were processed

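The authors deposited 1 table of log2 signals for 18 rat kidney arrays with 70570 probe sets. Per the labels' protocols, tissue was kept in liquid nitrogen, RNA was extracted with Trizol and 6 ug was labelled with biotin. Summarization, normalization and scanner settings are not given in the sources used here. Precision is limited by 3 arrays a group.

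Of the probe sets, 23437 name 1 gene in the platform annotation and 505 name several, which were not used. For each of 22084 genes the probe set with the highest mean was kept. The members and all lists were chosen with earlier results of these data known.

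A linear model with 1 mean per group was fitted to all 18 arrays and all genes with limma 3.58.1 in R 4.3.3 (lmFit and eBayes, 12 residual degrees of freedom). Contrasts were two-sided, p values were adjusted by Benjamini-Hochberg over all genes, and the threshold was 0.05. The fit was tested on simulated data. A gene was at background when its mean was no higher than the level that 95% of olfactory-type receptor genes stay under.

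Members that passed are given array by array, or the 3 with the smallest p where none passed. Of each pathway list, members that passed are named, otherwise the 2 with the smallest p at 6 weeks. Alternatives were quantile normalization, median centring, genes above background, array weights, a trended robust prior, the arrays compared alone, the mean of all probe sets of a gene, the replicate number as a block, and leaving out each array. The labels do not say that replicate numbers pair the arrays. Between saline and cadmium arrays of the same time, deviations of the 9 same-numbered pairs correlated at -0.469 to 0.433. Those of the 18 other pairs correlated at -0.528 to 0.515. So few pairs, with deviations taken from means of 3 arrays, cannot decide whether the numbers pair arrays. Promoters came from RefSeq (GRCr8). Tables and figures used Python 3.11.15, pandas 2.3.3, numpy 2.4.6 and matplotlib 3.10.9.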

Additional observations from a re-analysis of the deposited data

Results flagged for a closer look

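The cadmium change of 2 members differed between times by limma's test of the difference itself. For Mx1 the change at 6 weeks exceeded that at 1 day by 2.59 (adjusted p = 0.00869). For Usp18 it did so by 2.08 at 6 weeks (adjusted p = 0.00475) and by 1.69 at 12 weeks (adjusted p = 0.00953). Usp18 also stood out because its 3 cadmium arrays lay above all 3 saline arrays at 6 weeks (1.58) and at 12 weeks (1.20) and below all of them at 1 day (-0.50). The difference at 1 day did not pass by itself (adjusted p = 1), and the saline arrays of 1 day enter each difference from that time.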

How the results depend on the processing

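No called member reversed. Over all 26 alternatives the median change of the members ran from 0.72 to 0.96 at 6 weeks, 0.43 to 0.63 at 12 weeks and 0.57 to 0.70 over both times. The small medians of cadmium at 12 weeks minus 1 day (-0.02 to 0.13) and saline at 12 minus 6 weeks (-0.06 to 0.08) changed sign, in 1 and 3 alternatives, and that at 1 day ran from -0.21 to -0.03. With array weights the members called were 27 at 6 weeks, 28 over both times, 4 in the change at 6 weeks minus 1 day, 4 in that at 12 weeks minus 1 day, 10 in saline at 6 weeks minus 1 day, 4 in cadmium at 6 weeks minus 1 day and 1 in cadmium at 12 minus 6 weeks. With only the arrays of the groups compared they were 7 at 6 weeks and 0 at 12 weeks, 0 in the change at 12 weeks minus 1 day, and 0 in both saline and both cadmium contrasts against 1 day; this fit has fewer arrays behind its spread. In the change at 12 weeks minus 1 day the count of 1 became 4 with quantile normalization, 3 with genes above background and 3 with a trended robust prior. In cadmium at 6 weeks minus 1 day each of these 3 gave 2, and median centring gave 5 in saline at 6 weeks minus 1 day. With the replicate block, 2 members were called at 6 weeks, 5 at 12 weeks, 9 over both times and 0 in cadmium at 6 weeks minus 1 day. Whether the replicate number pairs arrays is not known. Leaving out 1 array gave 0 to 0 at 1 day, 2 to 8 at 6 weeks, 1 to 7 at 12 weeks and 8 to 17 over both times. It gave 2 to 3 and 1 to 3 in the changes at 6 and 12 weeks minus 1 day, 0 to 0 in that at 12 minus 6 weeks, 0 to 5, 1 to 5 and 0 to 0 in the saline contrasts, and 0 to 3, 0 to 1 and 0 to 1 in the cadmium contrasts. Over all genes the 9 calls at 6 weeks became 500 with array weights, 14 with the trended robust prior, 40 with only the arrays compared and 3 with the block. The 72 calls at 12 weeks became 43 with median centring, 127 with array weights and 0 with only the arrays compared. The 87 calls over both times became 396, 55 with only the arrays compared and 51 with the block. In the change at 12 weeks minus 1 day quantile normalization gave 20 calls over all genes and the trended robust prior 16. Leaving out 1 array gave 2 to 32 calls over all genes at 6 weeks, 33 to 108 at 12 weeks and 39 to 156 over both times. In the saline contrasts against 1 day it gave 19 to 147 and 8 to 127. Other causes were not tested.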
